A study of Mus musculus with 7 samples.

Results

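Fos, Fosb, Fosl2, Jun, Junb, Jund, Atf3, Egr1, Myc and Ier2 code for transcription regulators, and their RNA was measured in whole hearts of KLF15-null mice and wild-type (WT) mice. KLF15 is Krüppel-like factor 15, a transcription factor with zinc fingers that is abundant in striated muscle and liver. The genes were chosen by name, with earlier results of these data known, so counts over them are no blind test. Every probe set assigned to exactly 1 of these symbols was taken. All 10 genes were found, on 11 of the 22626 probe sets of the array, with 1 probe set each except Jun, which had 2. The series holds 3 Affymetrix arrays of KLF15-null hearts and 4 of WT hearts, and each array is called a heart below. Both groups were labelled male, strain C57/BL6, 3 to 4 months of age and without food for 18 h, so no value here shows what the fast itself does. The labels do not say which part of Klf15 is deleted, or in which cells, and do not state that each array is a separate animal, so that p-values measure the spread between these samples.

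AP-1 is a dimer of a FOS and a JUN protein, or of JUN proteins alone, held together by leucine zippers, and it binds a short palindromic DNA site. Fos, Jun, Junb, Atf3, Egr1, Myc and Ier2 belong to the immediate early genes, which resting cells transcribe little. Growth factors, stretch, adrenergic signals and tissue handling switch them on within minutes, some of them through MAP kinases and serum response factor. In the heart they are known as early markers of load and injury.

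Array medians lay between 6.22 and 6.33 on the log2 scale, which is the scale of every level and difference below. The bright end was not level, with a 98th percentile of 11.86 to 12.02 on KLF15-null arrays and 11.43 to 11.74 on WT arrays. The correlation over all probe sets was 0.986 to 0.993 between KLF15-null arrays, 0.995 to 0.997 between WT arrays and 0.942 to 0.964 between the groups. Against the label male, Xist, the RNA of the inactive X chromosome, lay between the 82.2nd and the 93.9th percentile on the 7 arrays, and 8 probe sets of 5 Y-linked genes lay at or below the 29.4th on every array. Klf15 had 6.52, 6.23 and 6.23 in the KLF15-null hearts, against 8.68, 8.98, 8.73 and 9.08 in the WT hearts (exact permutation p = 0.0286, two-sided). That is the smallest p the 35 splits of 7 arrays can give. Cardiomyocyte markers were bright, Myh6 with 14.18 to 14.28 on the KLF15-null and 13.95 to 14.11 on the WT arrays. On their brightest probe sets 1 of 8 passed the test (Myl3, at 0.24, where WT 3 stood apart at 13.91). Further probe sets of Myh6 and Pln, given with the other markers below, fell.

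In KLF15-null hearts 9 of the 10 member probe sets that could be tested rose and 1 fell. The largest rises were those of Egr1, Fos and Atf3, at 7.90-fold, 5.22-fold and 3.70-fold. Jund, Myc, Ier2 and the brighter probe set of Jun rose by 1.73-fold to 2.03-fold, and Junb and Fosl2 by less. The probe set that was lower was the second one of Jun, so the direction for Jun depends on the probe set. Fosb was too dim for the test. A probe set was tested when its mean over the 7 arrays reached the 40th percentile (5.74), with limma's moderated test and Benjamini-Hochberg adjustment over all 13576 probe sets tested, and a difference was called at an adjusted p under 0.05. None of the 10 had a KLF15-null or a WT mean below that level.

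These counts stand against a broad difference between the groups. Of all probe sets tested 50.6% were called, 26.8% as higher in KLF15-null hearts and 23.8% as lower. The groups did not overlap for 8 member probe sets with KLF15-null above WT and for 1 with KLF15-null below WT, where 27.6% and 25.4% of all probe sets tested, 53.0% together, did the same. The median difference was 0.92 over the member probe sets tested and 0.00 over all. Since these are whole hearts, fewer cells of a type and less RNA per cell cannot be told apart.

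**Figure D1:**
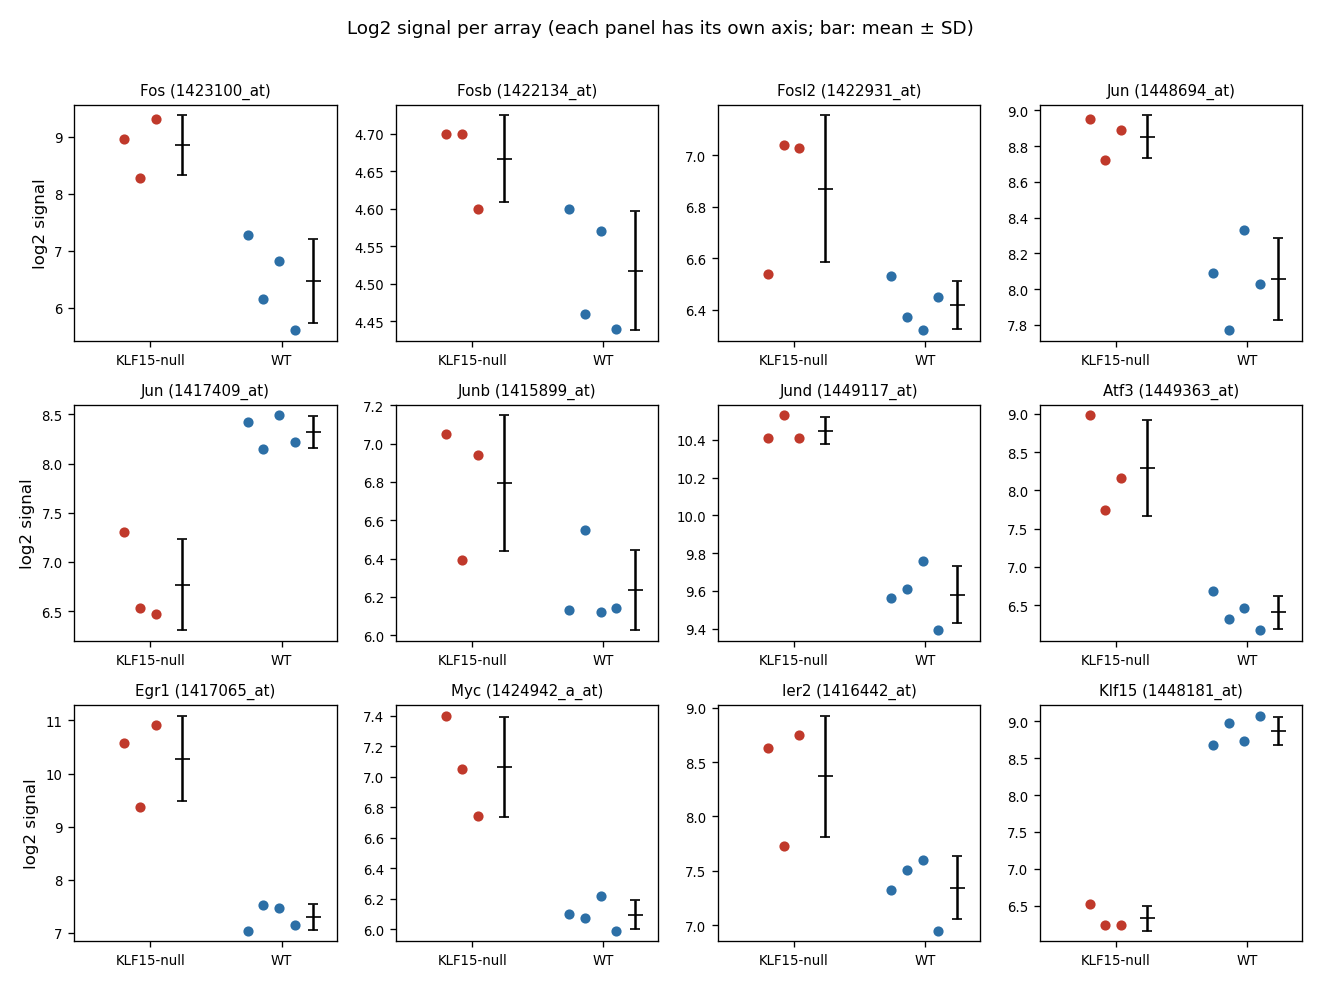
Log2 signal of each of the 11 member probe sets and of Klf15 (vertical axes, separate for each panel) in the 3 KLF15-null hearts (red) and the 4 WT hearts (blue), 1 point per array, with the mean ± SD beside the points. Egr1, Fos and Atf3 lie far apart between the groups, Fosb lies near 4.6 in both, and the 2 Jun panels run in opposite directions.

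The sequences before the start sites of Fos, Jun and Atf3 are shown because these members hold the largest AP-1 rises and the one conflict between probe sets. Each run is the 120 bases before the start site, from RefSeq on GRCm38.p6, read 5′ to 3′ on the gene's strand. Capitals mark matches on either strand to the motifs named below, which were picked with these sequences in view.
Fos, chr12:85473770-85473889, plus strand: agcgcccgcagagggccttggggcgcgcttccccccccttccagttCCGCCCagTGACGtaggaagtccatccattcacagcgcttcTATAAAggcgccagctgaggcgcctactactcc
Jun, chr4:95052223-95052342, minus strand: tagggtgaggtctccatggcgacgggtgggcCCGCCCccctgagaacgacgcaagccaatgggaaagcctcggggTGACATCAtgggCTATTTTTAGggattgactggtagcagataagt
Atf3, chr1:191183334-191183453, minus strand: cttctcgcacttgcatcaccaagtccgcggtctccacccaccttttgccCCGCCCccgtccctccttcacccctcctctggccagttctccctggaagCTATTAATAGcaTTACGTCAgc

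The Fos run holds TGACG, the core of the cAMP response element, and a TATA box (TATAAA). The Jun run holds TGACATCA, a form of the cAMP response element with 1 free base (TGACNTCA), and CTATTTTTAG, a match to the MEF2 site. The Atf3 run holds TTACGTCA, which contains TGACG on its other strand, and CTATTAATAG, another match to the MEF2 site. RefSeq promoters were matched for 7 of the 10 members (Fos, Fosb, Fosl2, Jun, Junb, Jund and Atf3), and the 250 bases before their start sites were searched on both strands. TGACG was found in 4 of the 7 (Fos, Fosb, Junb and Atf3) and in 17.8% of all 32851 promoters. The GC box GGGCGG was found in 5 of the 7 and in 32.7% of all, the MEF2 site in 2 (Jun and Atf3) and in 3.20%, TATAAA in 1 and in 12.4%, TGACNTCA in 1 and in 7.49%, and TTACGTCA in 1 and in 0.447%. TTACGTCA was searched as a site of the Atf3 promoter, so its match in Atf3 was fixed by that choice. The AP-1 site TGANTCA was in none of these 7 windows and in 6.75% of all, and the full cAMP response element TGACGTCA in none of the 7 and in 1.55%. A match is a description of the letters and not a binding site, and these arrays measured no binding.

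Fos codes for the inducible FOS subunit of AP-1. It had 8.96, 8.28 and 9.31 in KLF15-null hearts 1 to 3, against 7.28, 6.15, 6.82 and 5.61 in WT hearts 1 to 4. The groups did not overlap, but the WT hearts differed among themselves by 1.67, and their SD of 0.74 was larger than that of 99.9% of the probe sets tested. Fos rose by 2.38 in KLF15-null hearts (SE 0.37, limma adjusted p = 0.000555, exact permutation p = 0.0286), a difference that 47 probe sets exceeded. Fosb, the closest relative of Fos, lay at the 17.0th percentile of all probe sets, with 4.70, 4.70 and 4.60 in KLF15-null hearts, against 4.60, 4.46, 4.57 and 4.44 in WT hearts. It stayed near the low end of the array's range on every array, and KLF15-null 3 was level with WT 1. Without the filter on dim probe sets the difference was 0.15 (SE 0.06, limma adjusted p = 0.0978).

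Fosl2 codes for FRA-2, a FOS family member that lacks the strong transactivation domain of FOS. It had 6.54, 7.04 and 7.03 in KLF15-null hearts, against 6.53, 6.37, 6.32 and 6.45 in WT hearts. KLF15-null 1 was level with the highest WT heart, while KLF15-null 2 and 3 were clearly above all of them. Fosl2 rose by 0.45 (SE 0.13, limma adjusted p = 0.0164). The call was lost without KLF15-null 2 (0.36, adjusted p = 0.0508), without KLF15-null 3 (0.37, adjusted p = 0.0715) and with the replicate number as a block (0.46, adjusted p = 0.0572). Fosl1, the gene of FRA-1, stood at 0.13 (SE 0.09, adjusted p = 0.230).

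Jun codes for the JUN subunit, which can form AP-1 with itself or with a FOS protein. Its brighter probe set, 1448694_at, had 8.95, 8.72 and 8.89 in KLF15-null hearts, against 8.09, 7.77, 8.33 and 8.03 in WT hearts. Its dimmer probe set, 1417409_at, had 7.30, 6.53 and 6.47 in KLF15-null hearts, against 8.42, 8.15, 8.49 and 8.22 in WT hearts. On the first all KLF15-null hearts were above all WT hearts, and on the second all were below. The differences were 0.79 (SE 0.14, limma adjusted p = 0.00102) and -1.56 (SE 0.19, limma adjusted p = 0.000133), each with an exact permutation p of 0.0286. Both probe sets carry the same transcript accession in the platform annotation and are on average bright, at the 81.6th and the 72.3rd percentile. The mean of both gave -0.38 (SE 0.15, limma adjusted p = 0.0567), which did not pass. Of the 2748 genes with several tested probe sets, 576 (21.0%) had probe sets called in opposite directions, Jun among them.

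Junb codes for a JUN protein of weaker transactivation that can hold JUN activity in check. It had 7.05, 6.39 and 6.94 in KLF15-null hearts, against 6.13, 6.55, 6.12 and 6.14 in WT hearts. KLF15-null 2 lay below WT 2, so the groups overlapped. Junb rose by 0.56 (SE 0.17, limma adjusted p = 0.0204). The call was lost without KLF15-null 1 or 3 and without WT 1, 3 or 4, with values between 0.43 and 0.53 and adjusted p between 0.0553 and 0.0850, and with the replicate number as a block (0.53, adjusted p = 0.0923). Jund codes for the JUN protein that most resting cells already hold and that is known to restrain cardiac hypertrophy in mice. It had 10.41, 10.53 and 10.41 in KLF15-null hearts, against 9.56, 9.61, 9.76 and 9.39 in WT hearts. All 3 KLF15-null hearts were close together and above all WT hearts. Jund rose by 0.87 (SE 0.12, limma adjusted p = 0.000206). The rise was smaller, at 0.61 and 0.65, after quantile and cyclic loess normalization, and it was still called.

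Atf3 codes for a stress-induced basic leucine zipper protein that pairs with JUN proteins and mostly represses. It had 8.98, 7.75 and 8.16 in KLF15-null hearts, against 6.68, 6.32, 6.46 and 6.17 in WT hearts. The groups were 1.07 apart at their nearest points. Atf3 rose by 1.89 (SE 0.25, limma adjusted p = 2.00e-04, exact permutation p = 0.0286).

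Egr1 codes for a zinc-finger factor that binds GC-rich sites and that serum response factor induces together with Fos. It had 10.57, 9.37 and 10.91 in KLF15-null hearts, against 7.04, 7.53, 7.47 and 7.15 in WT hearts. The nearest hearts of the groups were 1.84 apart, the widest gap of the members. Egr1 rose by 2.98 (SE 0.32, limma adjusted p = 5.22e-05, exact permutation p = 0.0286), and 15 of all probe sets tested had a larger difference. Ier2, an immediate early gene whose product regulates transcription, had 8.63, 7.73 and 8.75 in KLF15-null hearts, against 7.32, 7.51, 7.60 and 6.95 in WT hearts. KLF15-null 2 was 0.12 above the highest WT heart, and the other KLF15-null hearts were well above all WT hearts. Ier2 rose by 1.02 (SE 0.25, limma adjusted p = 0.00661).

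Myc codes for a factor that pairs with MAX and drives growth and ribosome production genes. It had 7.40, 7.05 and 6.74 in KLF15-null hearts, against 6.10, 6.07, 6.22 and 5.99 in WT hearts. The WT hearts were close together and all KLF15-null hearts lay above them. Myc rose by 0.97 (SE 0.14, limma adjusted p = 0.000345, exact permutation p = 0.0286). Its probe set is of the kind that may detect several transcripts of a gene (_a_at).

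**Figure D2:**
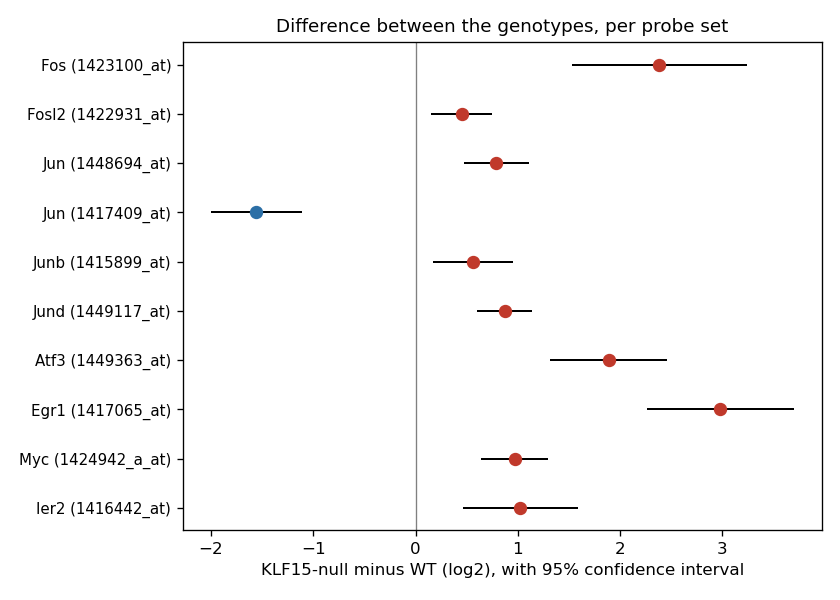
Difference between KLF15-null and WT hearts on the log2 scale (horizontal axis) for the 10 member probe sets tested, with 95% confidence intervals as lines. Egr1 lies at 2.98, Fos at 2.38 and Atf3 at 1.89, and Jun has one probe set at 0.79 and one at -1.56.

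The KLF15-null hearts did not differ from WT to the same degree. Against the WT mean, Egr1 was higher by 3.27, 2.07 and 3.61 in KLF15-null hearts 1 to 3, and Fos by 2.49, 1.82 and 2.84. Atf3 was higher by 2.57, 1.34 and 1.75, and Ier2 by 1.29, 0.38 and 1.40. KLF15-null 2 was thus the lowest of the 3 for these genes. It was the lowest in 6 of the 9 member probe sets called higher (Fos, Junb, Atf3, Egr1, Ier2 and Jun on 1448694_at), and in 32.4% of all 3637 probe sets called higher. Myc was lowest in KLF15-null 3, and Fosl2 and Jund in KLF15-null 1. Without KLF15-null 2, 8 member probe sets were called higher, and the one lost was that of Fosl2. The SD among KLF15-null hearts was 0.81 for Egr1, 0.62 for Atf3, 0.56 for Ier2 and 0.52 for Fos, each above that of at least 96.5% of the probe sets tested. For Jund it was 0.07, above that of 13.4% of them.

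**Figure D3:**
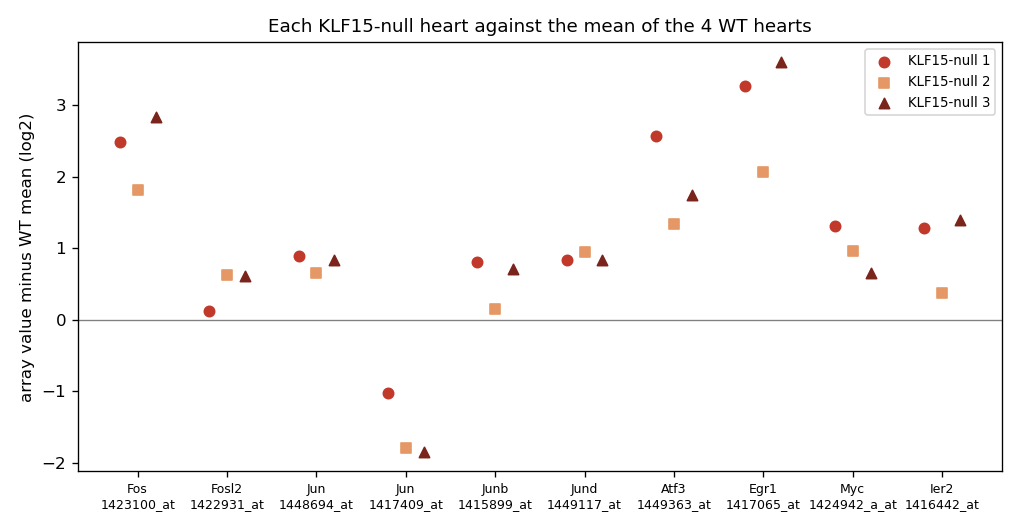
Value of each of the 3 KLF15-null arrays minus the mean of the 4 WT arrays (vertical axis, log2) for the 10 member probe sets tested. KLF15-null 2 (squares) is the lowest for Fos, Junb, Atf3, Egr1, Ier2 and the first Jun probe set, and not for Jund, Fosl2 or Myc.

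Genes related to the members were counted in 9 lists, each gene by the brightest of its tested probe sets. The lists, too, were chosen with earlier results of these data known. Of the 8404 genes so tested 27.4% were higher and 19.6% lower, with a median difference of 0.02. Among other bZIP partners of AP-1, 4 of 13 were higher and none lower, with a median of 0.13. The count of lower genes was 1 without KLF15-null 3 or WT 3, with array weights, or with probe sets averaged per gene. Atf2, at 0.11 on its brightest probe set (limma adjusted p = 0.347), was called lower on another, at -2.49 (adjusted p = 2.71e-06). A further one stood at -0.23 and did not pass. These Atf2 values were picked out after they were seen, and those of Atf4 are given below. The small MAF genes Mafk, Maff and Mafg, whose proteins lack a transactivation domain, rose by 0.94, 0.68 and 0.30, and a second probe set of Mafg stood at -0.02. Jdp2, the gene of a JUN-binding repressor, rose by 0.50. The share of higher genes, 4 of 13, lies near that of all genes.

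The other immediate early genes moved both ways, with 5 of 14 higher, 4 lower and a median of -0.01. Ier5, Ier3, Pim1 (a growth-promoting kinase) and Gadd45b (a stress sensor) rose by 1.49, 1.25, 1.15 and 1.10, although second probe sets of Ier5 and Gadd45b fell by 0.42 and 0.46. The 4 lower genes, named after their values were seen, were the nuclear receptor genes Nr4a1 and Nr4a3 at -0.80 and -0.39, the MAP kinase phosphatase gene Dusp1 at -0.72 and Egr3 at -0.36. Nr4a1 had 8.83, 9.11 and 8.78 in KLF15-null hearts, against 9.91, 9.74, 9.80 and 9.40 in WT hearts. These genes, like Egr1 and Fos, are known as early response genes, and they were lower in the hearts in which Egr1 and Fos were higher. The count of higher genes was 8 without WT 1, WT 2 or WT 4.

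Upstream of some members, 3 of 6 genes for serum response factor and its partners were higher and 2 lower. Srf, the factor itself, rose by 1.26 (SE 0.13, limma adjusted p = 5.16e-05), while its second probe set stood at -0.30 (adjusted p = 0.0807). The partner genes Elk4 and Elk3 rose by 0.54 and 0.50, with a further probe set of Elk4 at -0.35, and Myocd, the cardiac and smooth muscle coactivator myocardin, fell by 0.86. With gene-specific probe sets 1 gene was higher, and 1 was lower without KLF15-null 3, WT 2 or WT 4. In the MAP kinase cascade 3 of 12 genes were higher and 3 lower, with a median of 0.02. Rps6ka3, the gene of the kinase RSK2, rose by 1.47 and by 0.72 on its other probe set. Map3k5, the gene of the stress kinase ASK1, fell by 1.28, with a KLF15-null mean under the filter level. Map2k5 and Mapk14 stood at -0.97 and 0.58, each with a second probe set called the other way, at 0.80 and -0.97. Mapk9 stood at 0.34, with others of its probe sets called lower at -0.88 and -0.49. Map2k3, Map2k4 and Map2k2, not called on their brightest probe sets, were called on a second one, at -1.30, -1.58 and 0.83. The values of these last genes were picked out after they were seen.

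Of 9 tested genes known as AP-1 targets 7 were higher and 1 lower, with a median of 1.04. The count of higher genes ranged from 5 to 8 under the alternative settings. Among the 7, the groups overlapped for Hmox1, and Vim stood at 1.04, 0.87 and -0.11 on its probe sets. Hmox1 and Vim were picked out after their values were seen. Timp1, a metalloproteinase inhibitor, had 10.62, 10.40 and 10.38 in KLF15-null hearts, against 6.46, 7.15, 6.63 and 7.23 in WT hearts, and rose by 3.60. The matrix metalloproteinase gene Mmp3 rose by 2.70, with a WT mean under the filter level, the chemokine gene Ccl2 by 2.71 and Cd44, the hyaluronan receptor gene, by 1.67. The lower gene, named after its value was seen, was the cyclin gene Ccnd1 at -0.88, with other probe sets at -0.63 and 0.29, and 0 genes were lower without WT 1, WT 2 or WT 3. Of 10 EGR1 targets and co-repressors 3 were higher and 2 lower, with a median of 0.09. Pdgfa, a growth factor gene, rose by 2.05 and 1.60 on its 2 probe sets, and the adhesion molecule gene Icam1 by 2.02. Nab2, which codes for a co-repressor that EGR1 itself induces, rose by 0.77. The 2 lower genes were Vegfa at -0.42 and Tgfb1 at -0.68, Tgfb1 being named after its value was seen. Nab2 had 7.55, 6.88 and 7.51 in KLF15-null hearts, against 6.40, 6.56, 6.60 and 6.63 in WT hearts.

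The MYC partner genes had 2 of 8 higher and 4 lower, with a median of -0.25. Mxi1, an antagonist of MYC, fell by 1.49 and by 1.13 on its second probe set, and Mga fell by 1.68. Mnt, another antagonist, rose by 1.05, and Mxd4 by 1.22 on one probe set, with 0.41 and -0.54 on others. Of 17 known MYC targets 9 were higher and 2 lower, with a median of 0.71. The nucleolar genes Nop56 and Nolc1 rose by 1.62 and 1.41, Pa2g4 by 1.43 and Srm, of spermidine synthesis, by 0.91. The second probe sets of Nop56 and Nolc1 stood at -0.02 and 0.01, and those of Pa2g4 ranged from -0.67 to 1.56. In 6 of the 17 genes probe sets were called in opposite directions, and with gene-specific probe sets 5 were higher and 4 lower. The 2 lower genes, named after their values were seen, were Eif4e at -1.16, with others of its probe sets at 0.21 and 0.28 that did not pass, and Cad at -0.59, with a second probe set called higher at 0.42.

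Among ATF3 partners and genes of the amino acid stress response 6 of 12 were higher and 2 lower, with a median of 0.32. Cebpb, a bZIP gene of the acute-phase response, rose by 1.54, with a second probe set at -0.32 (adjusted p = 0.516). Gadd45a, Cebpg and Ddit3 rose by 1.15, 0.97 and 0.78, with further probe sets of Cebpg at 0.59 and -0.18. Atf4, the gene of the factor that drives this response, stood at 0.25 (limma adjusted p = 0.135) on its brightest probe set, at -0.26 (adjusted p = 0.0526) on another and at 2.96 (adjusted p = 1.01e-05) on a cross-hybridizing _x_at one, values picked out after they were seen. The count of lower genes was 0 without KLF15-null 3 or WT 1, and 1 without any other single array.

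**Figure D4:**
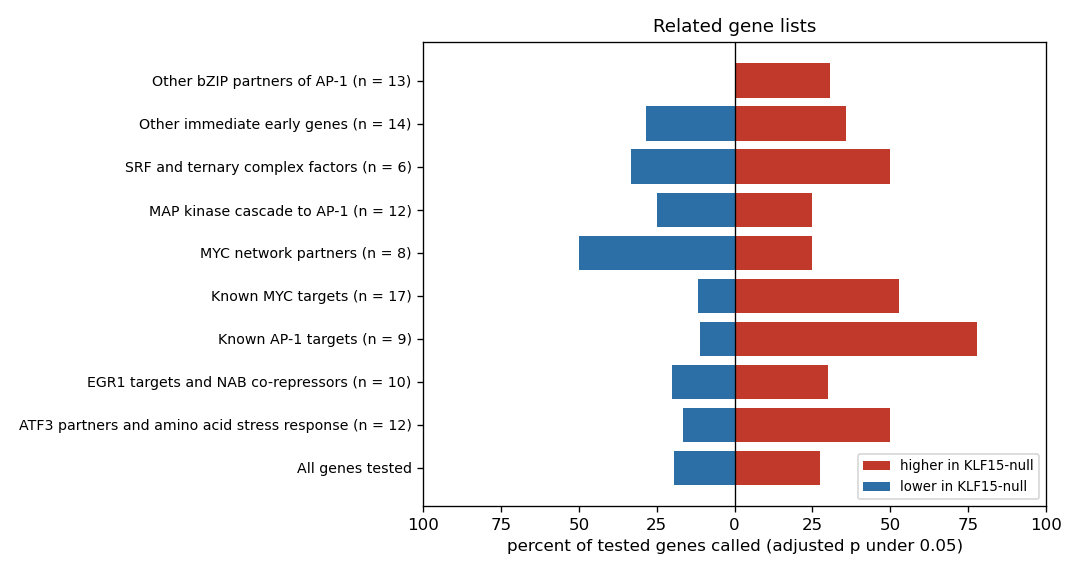
Percent of tested genes called higher (red, to the right) and lower (blue, to the left) in KLF15-null hearts for 9 lists of related genes, with n the genes tested and all 8404 genes in the bottom row. Known AP-1 targets have 7 of 9 genes higher, and the other immediate early genes are divided between 5 higher and 4 lower.

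Markers of other cell types differed between the groups as well, and their part in the members' values was not tested. Summed linear signal of the 8 tested macrophage and monocyte markers ranged from 4280 to 6070 in KLF15-null hearts and from 2620 to 4480 in WT hearts. Of these 3 were higher and 2 lower, Cd14 at 1.64 and C1qa at -1.24 having the smallest p, while the macrophage marker Adgre1 stood at 0.08 (limma adjusted p = 0.656). The other lower gene, C1qb at -0.77, had further probe sets called higher at 0.59 and 1.74. Csf1r, higher at 0.90, had others at 0.30 and -0.24 that did not pass. C1qb and Csf1r were picked out after their values were seen. The 5 neutrophil markers summed to 768 to 940 in KLF15-null hearts and 457 to 580 in WT hearts, with S100a8 and S100a9 at 2.19 and 1.41 and none of the other 3 past the threshold. The 7 fibroblast markers summed to 4610 to 5340 in KLF15-null hearts and 5510 to 9980 in WT hearts, with 1 higher, 2 lower and 4 not past the threshold. Lum and Dcn stood at -1.38 and -1.25, and the higher one, picked out after its value was seen, was Pdgfra at 0.53. The 6 endothelial markers summed to 1320 to 1940 in KLF15-null hearts and 1740 to 2200 in WT hearts, with Pecam1 at -2.24 and Tie1 at -0.77 and the other 4 not past the threshold, at -0.14 to 0.46 (median of all 6 -0.06). The 8 cardiomyocyte markers summed to 108000 to 114000 in KLF15-null hearts and 98300 to 112000 in WT hearts, and a second probe set of Myh6, picked out after its value was seen, fell by 5.34. Of the red blood cell markers 1 was tested, Alas2 at -0.49 (limma adjusted p = 0.178).

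For 4 members the genes most alike were sought, by the root mean square difference over the 7 arrays between values taken relative to the WT mean. Nearest to Egr1 were Ch25h (0.26), Phlda1 (0.36) and Ccl2 (0.37). All of them were, like Egr1, lowest among KLF15-null hearts in KLF15-null 2, which the choice by likeness over the same arrays largely fixes. Nearest to Fos were Lrrfip1 (0.40), Gadd45g (0.47) and Ccl7 (0.48). Nearest to Atf3 were Gm13889 (0.19), Tgfb2 (0.19) and Uck2 (0.22). Gm13889 had 9.61, 8.12 and 8.80 in KLF15-null hearts, against 7.06, 7.06, 6.94 and 7.09 in WT hearts. Its order of the KLF15-null hearts was that of Atf3, which the same way of choosing favours. Nearest to Myc were Skap2 (0.07), Srgn (0.08) and Enah (0.09). Ch25h, Ccl7 and Tgfb2 had WT means under the filter level, so that they were tested only through their KLF15-null values. No member was among the nearest 3 genes of another.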

How the data were processed

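The authors deposited a table of log2 signal for each probe set. No label names the scale, which was judged from the range of 3.20 to 14.28. Per the labels' protocols, Trizol RNA was made into biotin-labelled cRNA with a one-cycle kit. Per the submitters' processing notes the software was GCOS, of no stated version. How probes were summarized and arrays scaled was not given in the sources used here.

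The 3 KLF15-null arrays were set against the 4 WT arrays on the deposited log2 values with limma 3.58.1 in R 4.3.3, with no covariate and an intensity trend, two-sided, after the fit was tested on simulated data. Of the probe sets 20380 had 1 gene symbol. Members and lists were chosen with earlier results of these data known. All member probe sets, Klf15, up to 4 genes per list by smallest p (2 per marker list) and the 3 nearest genes to each of 4 members are named. The arrays' number limits the precision. Control probe sets for RNA quality, planned for, were absent from the values used here, so RNA quality was not assessed. Alternatives were filters, scalings, no trend, array weights, a replicate block, other probe set rules and each array left out.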

Additional observations from a re-analysis of the deposited data

Results flagged for a closer look

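Among 70 of the probe sets named above 4 had 1 WT heart far from the other 3, about what chance gives (1 in 20 groups). For Junb it was WT 2, at 6.55 where the others had 6.13, 6.12 and 6.14 (gap over range 0.968), and without it Junb differed by 0.66 (limma adjusted p = 0.0110). For Mafg it was WT 4, at 7.14 against 7.27 to 7.29 (0.859). For Elk4 it was WT 3, at 8.86 against 8.60 to 8.64 (0.860). For Myl3 it was WT 3 as well, at 13.91 against 13.67 to 13.70 (0.894).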

How the results depend on the processing

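The count of member probe sets called higher was 9, and 6 to 9 under the alternatives; the 6 came from a filter at the 60th percentile, which leaves Fosl2, Junb and Myc untested. It was 7 with a replicate block and 7 to 9 with 1 array left out. The lower one, of Jun, was called under every alternative (-1.82 to -1.41). Fos (2.10 to 2.73), Egr1 (2.67 to 3.46), Atf3 (1.55 to 2.16), Jund (0.61 to 0.96), Myc (0.75 to 1.13, where tested), Ier2 (0.83 to 1.34) and Klf15 (-2.64 to -2.45) kept direction and call under all alternatives run. Of 148 single values for members 138 kept both, 9 (Fosl2 and Junb, given above) lost the call, and 1 turned, Jun at -0.38 with the mean of its probe sets. Same-numbered arrays were not taken as pairs, since the labels do not say that the numbers pair animals. Their deviations correlated at -0.14, -0.02 and 0.19, which cannot exclude pairing with so few arrays. Over all probe sets 3637 were called higher and 3235 lower, against 4473 and 2593 after median centring and 3042 and 2726 with the replicate block. Of 306 list counts 43 moved by over 1.5 times, most of them counts under 5. Among those with 5 or more genes on either side were bZIP partners higher (7, against 4) and ATF3 partners higher (10, against 6) with array weights, MYC targets higher (5, against 9) with gene-specific probe sets, other immediate early genes higher (8, against 5) without WT 1, 2 or 4, and MAP kinase genes lower (5, against 3) with the mean of probe sets. The ATF3 partners called lower were 1 instead of 2 under most alternatives. With no detection calls and 7 arrays, small differences of dim probe sets such as Fosb cannot be resolved.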
